A study of Mus musculus with 16 samples.

Results

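The 37 genes described here belong to the unfolded protein response and the integrated stress response. They were taken by gene symbol from the series count table, which lists 56748 genes, and all 37 were among the 13438 genes with enough counts to be tested. They were read as an ATF4 arm of 18 genes, a chaperone arm of 18 genes, and Eif2ak3, which encodes the PERK kinase and feeds the ATF4 arm. The ATF4 arm held 4 regulators (Atf3, Atf4, Atf5, Ddit3), 6 genes of feedback and damage control (Ddit4, Trib3, Chac1, Sesn2, Vldlr, Ppp1r15a), 5 genes of serine, glycine and one-carbon metabolism (Psat1, Phgdh, Psph, Shmt2, Mthfd2), and 3 genes of asparagine synthesis and amino acid transport (Asns, Slc7a5, Slc3a2). The chaperone arm held 3 sensors and factors (Atf6, Xbp1, Ern1), 11 genes of chaperones and folding enzymes (Hspa5, Hsp90b1, Calr, Hyou1, Dnajb9, Dnajc3, Sdf2l1, Pdia4, Pdia6, Creld2, Manf) and 4 genes of degradation from the endoplasmic reticulum (Herpud1, Edem1, Sel1l, Syvn1).

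Protein folding in the endoplasmic reticulum is watched by 3 membrane sensors. IRE1 (encoded by Ern1) splices Xbp1 messenger RNA and ATF6 is cleaved to a transcription factor, and both routes switch on chaperones and degradation of misfolded proteins. PERK, like the kinases that sense amino acid shortage, viral RNA or heme lack, phosphorylates eIF2α, which slows translation in general but favours that of ATF4, the factor behind amino acid synthesis, transport and tRNA charging genes. Gene counts measure neither Xbp1 splicing, ATF6 cleavage, eIF2α phosphorylation nor ATF4 protein.

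Macrophages were grown with L929 cell supernatant from the bone marrow of 4 wild-type male C57BL6 mice, and each mouse gave 1 library to each of 4 groups. One group received the vehicle DMSO, one LPS (bacterial lipopolysaccharide, a Toll-like receptor 4 ligand) at 100 ng/mL for 6 hours, one SR9009 (a small-molecule activator of REV-ERBα and REV-ERBβ, nuclear receptors that repress clock genes) at 10 µM for 16 hours, and one SR9009 and then LPS at the same doses and times. Whether vehicle preceded LPS in its group is not said in the labels. Each group therefore had 4 libraries from 4 animals, and levels below are TMM-scaled CPM (read counts scaled to library size), listed in the order of mice 1 to 4.

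Total counts ran from 12616442 to 24214863 per library, of which 85712 to 156098 fell on the 37 genes. The SR9009 library of mouse 1 stood apart: it had the lowest total, 13298 genes detected against 16419 to 18947 in the others, and a score of 184.6 on the second principal component (23.1% of the variance) against −38.7 to 32.2. Many of the results that rest on it are given with and without it. The labels name no batch, but the libraries of mice 3 and 4 were close to each other over all tested genes in all 4 groups. Those of mice 1 and 2 were so in each group except SR9009. Chi-square per gene was 10.1 to 37.5 in these 7 pairs, against 57.9 to 234 in the 14 pairs that cross, with the SR9009 library of mouse 1 left out. That library was far from the SR9009 library of mouse 2 (460) and from those of mice 3 and 4 (485 and 482). Values per mouse are therefore given. The summed level of 9 macrophage markers was 5631 to 11616 CPM over all libraries, with Adgre1 at 1527 CPM or more and Csf1r at 1626 CPM or more in each library, although Lyz2 gave only 9.22 to 54.7 CPM. The 9 neutrophil markers summed to 0.182 to 0.501 CPM in DMSO and 2.16 to 7.24 CPM with LPS (mainly S100a8; 6 at 0 in the LPS libraries, Ly6g among them). The 7 fibroblast markers summed to 1.07 to 2.91 and 6.74 to 15.9 CPM (mainly Pdgfrb), and the 6 dendritic cell markers to 0.435 to 2.55 and 1.91 to 8.40 CPM. With SR9009 these 3 sums were at most 0.906, 2.41 and 1.74 CPM, and with both agents at most 5.81, 9.24 and 3.77 CPM. Markers of B cells, T and NK cells, erythroid cells and mast cells summed to at most 1.94 CPM per list in any library. Their part in the results was not tested, and fewer cells of a type cannot be told apart from less RNA per cell in such bulk samples.

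Promoter stretches with the elements that the factors of each arm are known to bind are shown for some of the genes that hold them, whether or not called below. RefSeq promoters (build GRCm38.p6, not the build of the counts) were found for 33 of the 37 genes, and the 250 bases before each start were searched on both strands; Slc7a5, Atf6, Hyou1 and Manf had none in the table. The endoplasmic reticulum stress element (ERSE), CCAAT and CCACG with 9 bases between them, to which ATF6 and XBP1 are known to bind with NF-Y, was present in 7 of 15 chaperone-arm genes (Calr, Creld2, Dnajc3, Hsp90b1, Hspa5, Pdia6, Syvn1), in 0 of 17 ATF4-arm genes and in 0.130% of all 27025 genes. Its capitals below mark the 2 fixed parts.

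Hspa5: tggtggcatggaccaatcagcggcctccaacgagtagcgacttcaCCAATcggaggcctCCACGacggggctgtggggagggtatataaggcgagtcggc
Hsp90b1: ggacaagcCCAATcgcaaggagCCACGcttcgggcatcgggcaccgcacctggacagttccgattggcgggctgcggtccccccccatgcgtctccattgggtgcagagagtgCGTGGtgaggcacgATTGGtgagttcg
Pdia6: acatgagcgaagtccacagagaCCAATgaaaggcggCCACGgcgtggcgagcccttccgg
Creld2: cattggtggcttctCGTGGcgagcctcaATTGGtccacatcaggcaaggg

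These stretches lie at chr2:34771980-34772079, plus strand, 110 to 11 bases before the start for Hspa5, chr10:86705525-86705664, minus strand, 220 to 81 bases before the start for Hsp90b1, chr12:17266469-17266528, plus strand, 120 to 61 bases before the start for Pdia6, and chr15:88819506-88819555, plus strand, 140 to 91 bases before the start for Creld2. Hsp90b1 held the element on both strands, and Creld2 on the strand opposite to the gene.

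The C/EBP-ATF response element (CARE), TGATGNAA, a composite site of ATF4 and C/EBP factors, was present in 4 of 17 ATF4-arm genes (Asns, Atf3, Chac1, Vldlr), in 1 of 15 chaperone-arm genes (Herpud1) and in 3.91% of all genes. Capitals below mark its fixed bases, and in Herpud1 also those of ERSE-II (ATTGG and CCACG with 1 base between them), which among the 33 promoters was present only there, and in 0.0370% of all genes.

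Atf3: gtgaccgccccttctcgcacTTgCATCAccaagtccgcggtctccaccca
Chac1: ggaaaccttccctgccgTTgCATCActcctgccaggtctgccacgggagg
Asns: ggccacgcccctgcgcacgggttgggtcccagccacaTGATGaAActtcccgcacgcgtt
Herpud1: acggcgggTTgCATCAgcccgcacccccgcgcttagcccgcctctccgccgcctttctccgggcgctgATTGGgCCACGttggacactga

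In Atf3, Chac1 and Herpud1 the element lies on the strand opposite to the gene. Their positions are chr1:191183414-191183463, minus strand, 130 to 81 bases before the start for Atf3, chr2:119351032-119351081, plus strand, 210 to 161 bases before the start for Chac1, chr6:7693210-7693269, minus strand, 60 to 1 bases before the start for Asns, and chr8:94386309-94386398, plus strand, 120 to 31 bases before the start for Herpud1. Another XBP1 element, TGACGTGG, was in none of the 33 promoters (0.603% of all genes), and the cyclic AMP element TGACGTCA was in that of Ppp1r15a only (1.77% of all genes). ERSE and ERSE-II share the letters CCACG, as does the other XBP1 element on its opposite strand, and a match is a string of letters, not a bound site.

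Levels per transcript length (the authors' deposited FPKM) placed the chaperones first. In DMSO, Calr (calreticulin, a lectin chaperone) averaged 202 ± 35.6 FPKM (SD, n = 4), Hspa5 (BiP, the main HSP70 chaperone of the endoplasmic reticulum) 168 ± 40.0 and Hsp90b1 (GRP94, its HSP90) 116 ± 13.6. These 3 exceeded the fourth, Xbp1 (64.8 ± 13.6 FPKM), but the ranges of Calr (153 to 236) and Hspa5 (118 to 204) overlapped. The lowest were Trib3 (0.918 ± 0.160), Vldlr (0.390 ± 0.159) and Chac1 (0.200 ± 0.113 FPKM), all in the ATF4 arm. With LPS, Hspa5 reached 434 ± 87.2 and Atf3 335 ± 112 FPKM, the top 2 of the 37 by mean, though Atf3 (229.8 to 434 FPKM) overlapped both Hspa5 (336 to 516) and Calr (234 to 271).

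**Figure D1:**
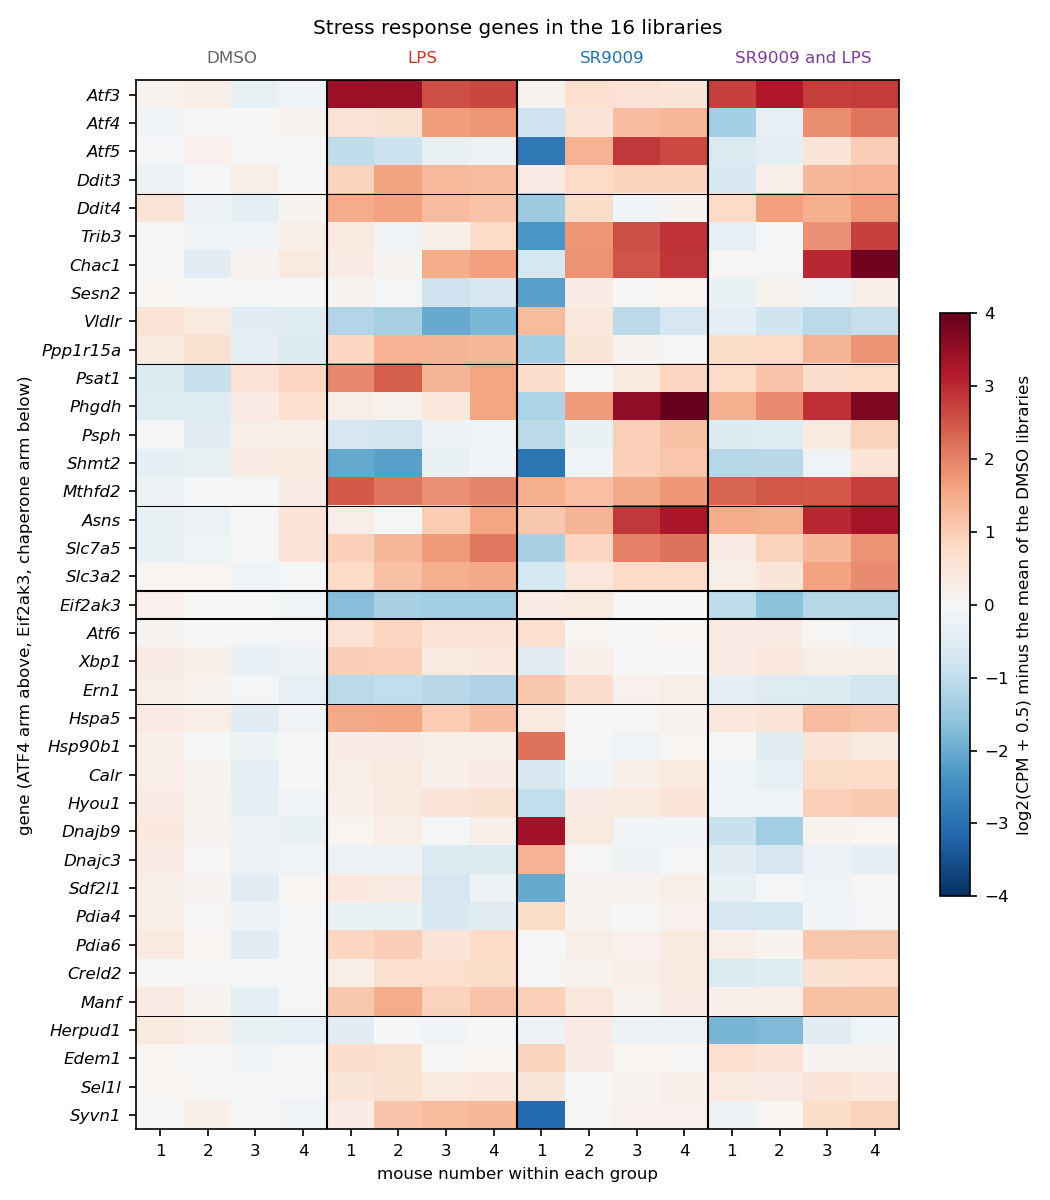
Each of the 37 genes (rows) in each of the 16 libraries (columns, mice 1 to 4 within each group); colour gives log2(CPM + 0.5) minus the mean of the 4 DMSO libraries. Atf3 and Mthfd2 are red in all LPS libraries, Eif2ak3 and Ern1 blue, and the SR9009 library of mouse 1 differs from the other 3 SR9009 libraries in Dnajb9, Hsp90b1, Syvn1 and much of the ATF4 arm.

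LPS against DMSO gives the response of these genes to LPS alone. LPS raised 8 of 18 ATF4-arm genes and lowered 1, against 19.4% called higher and 20.4% called lower over all genes (edgeR adjusted p below 0.05). The median log2 fold change of the arm was 1.22, beside −0.08 over all genes. Atf3, which encodes a stress-induced repressor that also brakes Toll-like receptor responses (ENSMUSG00000026628, chromosome 1, 190902493 to 190950236, GRCm39), moved most. It measured 92.0, 102, 68.0 and 76.9 CPM in DMSO and 907, 913, 500.1 and 538 CPM with LPS. Every LPS library lay above every DMSO library, and means rose from 84.6 ± 15.1 to 714 ± 226 CPM (SD, n = 4; edgeR log2 3.08, SE 0.25, adjusted p = 2.08e-07). Here and below, separation of groups is read from the libraries that gave the calls. Its share over all genes was not counted in any comparison.

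Among the regulators, Ddit3 (CHOP, a factor that promotes death under lasting stress) also rose. Its libraries ran 9.01, 10.1, 12.6 and 10.8 CPM in DMSO and 20.1, 33.1, 26.6 and 25.4 CPM with LPS, without overlap (edgeR log2 1.31, SE 0.36, adjusted p = 0.00806). Atf4 itself (ENSMUSG00000042406, chromosome 15, 80139385 to 80141742) did not pass the test although its groups did not overlap: it read 64.3, 70.7, 73.0 and 79.2 CPM in DMSO and 107, 110.1, 228 and 245 CPM with LPS. The LPS libraries of mice 3 and 4 lay above those of mice 1 and 2, which lay above DMSO, and the edgeR adjusted p was 0.115 (log2 1.26, SE 0.61). Fitted on the LPS and DMSO libraries alone, it passed (log2 1.26, adjusted p = 0.00323). Atf5, a related factor, was lower in each LPS library than in any DMSO library but did not pass (log2 −0.58, adjusted p = 0.541).

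Of the feedback genes, Ddit4 (REDD1, an inhibitor of mTORC1) rose from 3.49 ± 1.16 to 9.57 ± 1.54 CPM and Ppp1r15a (GADD34, which brings a phosphatase to eIF2α) from 18.6 ± 7.36 to 41.9 ± 6.86 CPM. Ddit4 read 5.05, 2.77, 2.47 and 3.68 CPM in DMSO and 10.3, 11.4, 8.63 and 7.99 CPM with LPS (edgeR log2 1.45, SE 0.41, adjusted p = 0.0106). Ppp1r15a read 22.8, 26.7, 13.3 and 11.4 CPM and 31.7, 46.2, 45.3 and 44.6 CPM (edgeR log2 1.18, SE 0.38, adjusted p = 0.0204), and neither gene's groups overlapped. The lipoprotein receptor gene Vldlr fell by 2.06 on the log2 scale (SE 0.54, edgeR adjusted p = 0.00674), from 5.78, 5.15, 2.67 and 2.56 CPM to 1.41, 1.22, 0.555 and 0.713 CPM, all LPS libraries lying below all DMSO libraries. Trib3, a pseudokinase that restrains ATF4, Chac1, a glutathione-degrading enzyme, and Sesn2, a leucine sensor, gave log2 0.42, 1.79 and −0.33 and did not pass.

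Serine and one-carbon genes split. Mthfd2, the mitochondrial enzyme that oxidises methylene-tetrahydrofolate (ENSMUSG00000005667, chromosome 6, 83282673 to 83302890), read 23.3, 25.6, 25.7 and 33.1 CPM in DMSO and 149, 119, 95.1 and 104 CPM with LPS. No library overlapped, and the mean rose from 26.9 ± 4.27 to 117 ± 23.4 CPM (edgeR log2 2.11, SE 0.20, adjusted p = 7.69e-07). Psat1, which carries out the second step of serine synthesis, read 14.0, 11.1, 31.4 and 37.6 CPM and 80.0, 114, 53.9 and 63.3 CPM. Its increase was larger in mice 1 and 2, whose DMSO levels were lower (per-mouse log2 differences 2.47, 3.30, 0.77 and 0.74; edgeR log2 1.72, SE 0.36, adjusted p = 0.00126). The first enzyme of the pathway, Phgdh (log2 0.71), the last, Psph (−0.48), and Shmt2, which passes the serine carbon to folate (−0.92), did not pass. With mouse as a block, Shmt2 was called lower (log2 −1.22, adjusted p = 0.0425) and Asns, the asparagine synthetase gene, higher (0.69, adjusted p = 0.0432; without the block log2 0.84, adjusted p = 0.245).

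Both chains of the CD98 amino acid transporter rose. The light chain gene Slc7a5 (LAT1) read 5.46, 6.04, 6.72 and 9.96 CPM in DMSO and 13.6, 18.0, 23.5 and 31.1 CPM with LPS (edgeR log2 1.61, SE 0.56, adjusted p = 0.0301). The heavy chain gene Slc3a2 read 129, 129, 115 and 119.5 CPM and 209, 279, 336 and 354 CPM (edgeR log2 1.26, SE 0.37, adjusted p = 0.0122). Neither pair of groups overlapped, and for both genes the LPS levels were higher in mice 3 and 4 than in mice 1 and 2.

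Transcripts of 2 of the 3 stress sensors were lower with LPS. Eif2ak3 (ENSMUSG00000031668, chromosome 6, 70821499 to 70882229) fell by 1.45 on the log2 scale (SE 0.19, edgeR adjusted p = 1.67e-05), from 48.4, 43.2, 42.6 and 38.6 CPM to 13.0, 17.4, 16.3 and 16.4 CPM. Ern1 (ENSMUSG00000020715, chromosome 11, 106285476 to 106378678) fell by 1.12 (SE 0.21, adjusted p = 0.000489), from 96.3, 90.3, 79.4 and 64.6 CPM to 38.3, 41.4, 37.5 and 35.4 CPM. In both, the lowest DMSO library stood well above the highest LPS library. Atf6, which encodes the other sensor, went the other way, with 130.1, 123, 117 and 114 CPM in DMSO and 182, 218, 175 and 176 CPM with LPS (edgeR log2 0.64, SE 0.18, adjusted p = 0.0111), and Xbp1, the target of IRE1, did so with 265, 247, 170.2 and 185 CPM and 424, 410.4, 271 and 287 CPM (edgeR log2 0.68, SE 0.21, adjusted p = 0.0165). Xbp1 groups were close, the lowest LPS library (mouse 3) lying just above the highest DMSO library (mouse 1), while its per-mouse log2 differences were 0.68, 0.73, 0.67 and 0.63.

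The chaperone arm as a whole had 6 genes called higher and 1 lower of 18, with a median log2 fold change of 0.39. Besides Atf6 and Xbp1 these were Hspa5, Manf, Pdia6 and Sel1l. Hspa5 (ENSMUSG00000026864, chromosome 2, 34661982 to 34667559) read 893, 852, 516 and 657 CPM in DMSO and 2044, 2151, 1435 and 1660.1 CPM with LPS, a clear separation (edgeR log2 1.32, SE 0.24, adjusted p = 0.000406). Manf, a secreted regulator of BiP, read 70.8, 60.8, 44.0 and 53.5 CPM and 118, 160.2, 108 and 124 CPM (edgeR log2 1.16, SE 0.27, adjusted p = 0.00273). Pdia6, a disulfide isomerase, read 218, 178, 126 and 168 CPM and 303, 334, 243 and 286 CPM, and Sel1l, the scaffold of the HRD1 degradation complex, 203, 198, 181 and 185 CPM and 268, 291, 251 and 263 CPM. The smaller changes in Pdia6 (log2 0.76, SE 0.24, edgeR adjusted p = 0.0199) and Sel1l (0.49, SE 0.15, adjusted p = 0.0166) also separated the groups.

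The other 11 genes of the arm did not pass with LPS. Some of them were separated as well: every LPS library lay above every DMSO library in Hsp90b1, Creld2 and Syvn1, and below in Pdia4. Values were log2 0.27 for Hsp90b1, 0.28 for Calr, 0.41 for Hyou1 (a nucleotide exchange factor of BiP), 0.09 for Dnajb9 and −0.41 for Dnajc3 (J-domain co-chaperones of BiP). Sdf2l1, another partner of BiP, gave 0.01, the isomerase Pdia4 −0.40, and Creld2 0.60. Of the degradation genes, Herpud1 gave −0.18, Edem1, which hands over mannose-trimmed proteins, 0.37, and Syvn1, the HRD1 ubiquitin ligase, 1.06 (adjusted p = 0.0951). Under upper-quartile scaling, which moved the median of all genes from −0.08 to −0.28, Atf6, Xbp1, Pdia6 and Sel1l were no longer called (adjusted p = 0.0761, 0.0688, 0.0642 and 0.14), Pdia4 was called lower (log2 −0.59), and all genes split into 15.8% higher and 25.7% lower. The calls of Atf3, Mthfd2, Psat1, Hspa5, Manf, Eif2ak3 and Ern1 held in all 20 fits that left out a mouse or a single library. The 14 genes called higher came to 6 without mouse 2, 3 or 4, where the share of all genes also fell, to 13.5%, 13.6% and 13.5%. They came to 9 without the DMSO library of mouse 3 (16.4% of all genes). Among these 20 fits, Ddit4, Slc3a2 and Atf6 lost their call only without mouse 2, 3 or 4, Ddit3 and Vldlr only without mouse 2, and Ppp1r15a without mouse 3 or 4 or the DMSO library of either. Pdia6 and Sel1l lost theirs without mouse 2, 3 or 4, without the DMSO library of mouse 3 and without the LPS library of mouse 2. Slc7a5 and Xbp1 lost theirs most often (8 and 7 of 20), each also without single DMSO or LPS libraries. Without the SR9009 library of mouse 1 there were 15 called higher and 5 lower, beside 26.8% and 30.6% of all genes.

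**Figure D2:**
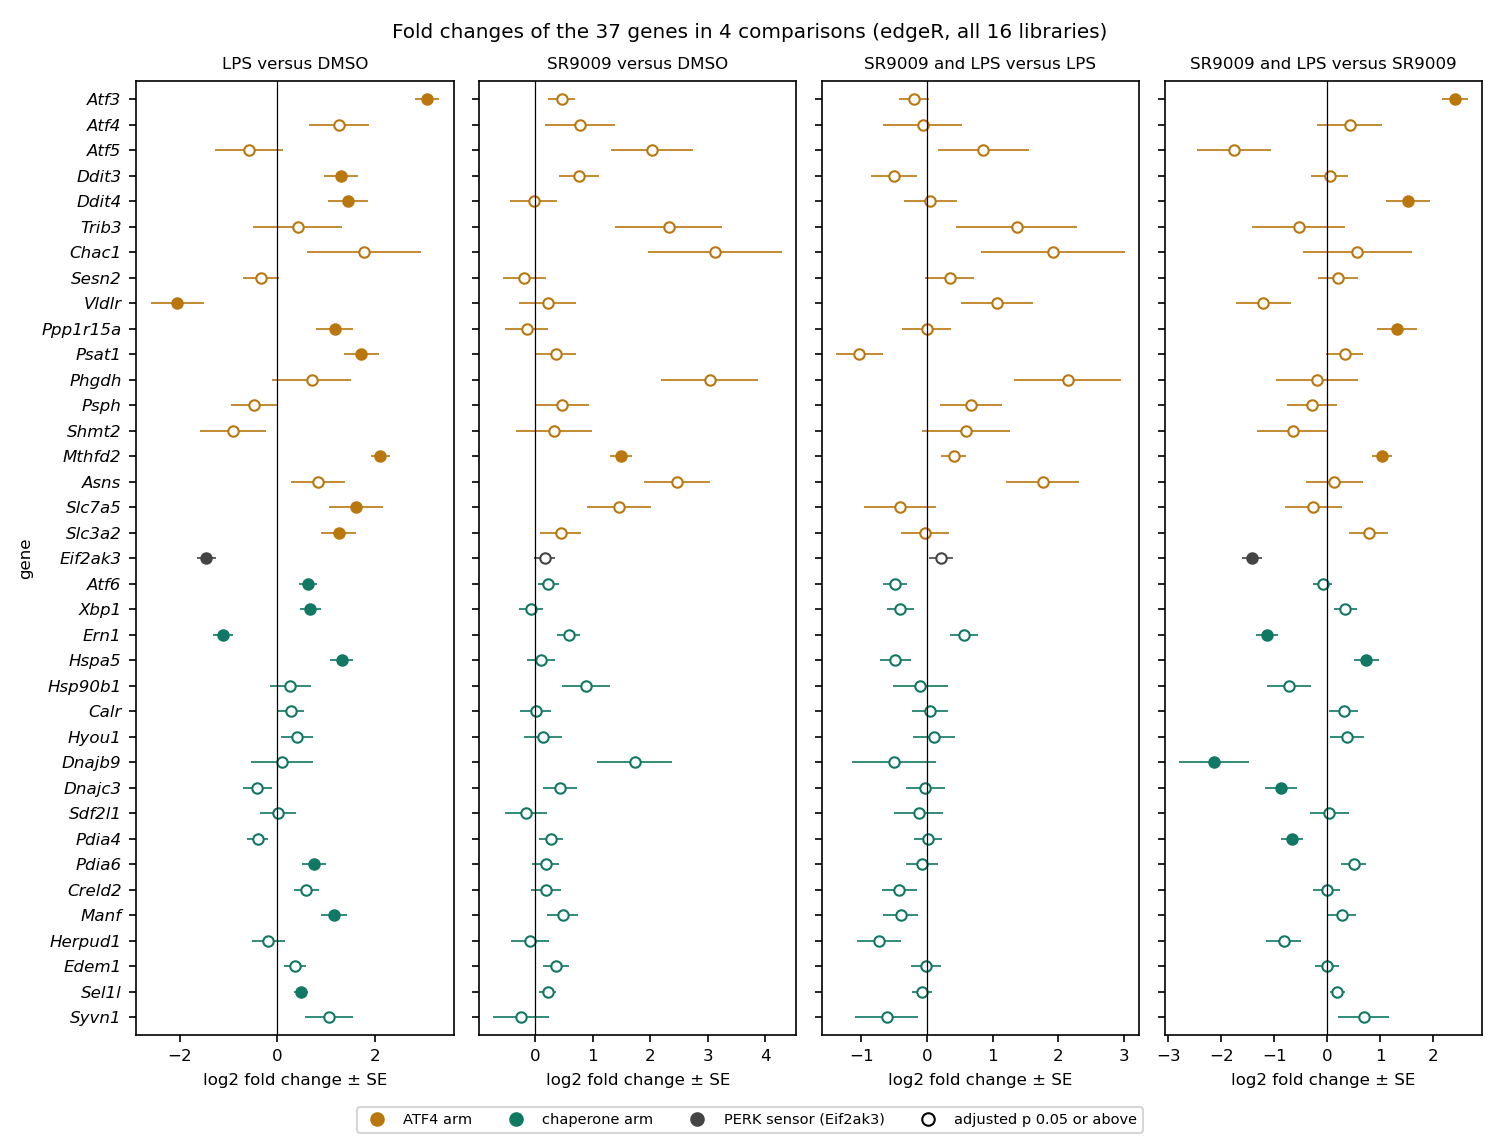
Log2 fold change (x axis) of each of the 37 genes (y axis) in 4 comparisons, with bars of 1 SE from the edgeR test; filled circles passed an adjusted p of 0.05. The LPS panel holds 17 filled circles on both sides of 0, the SR9009 panel 1 (Mthfd2) and the panel of SR9009 and LPS against LPS none.

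The next comparison sets SR9009 alone against DMSO. The compound raised 1 of the 37 genes, Mthfd2, and lowered 0, against 0.313% called higher and 0.566% called lower over all genes. Mthfd2 read 73.3, 62.0, 76.6 and 90.5 CPM with SR9009 against 23.3, 25.6, 25.7 and 33.1 CPM in DMSO. The groups did not overlap, the mean went from 26.9 ± 4.27 to 75.6 ± 11.7 CPM (SD, n = 4; edgeR log2 1.49, SE 0.19, adjusted p = 0.00414), and all 4 mice showed it (per-mouse log2 differences 1.63, 1.26, 1.56 and 1.44). In the library of mouse 1, Mthfd2 was 1 of only 5 ATF4-arm genes above the DMSO level of the same mouse. Without mouse 2, 3 or 4 in all groups, or with the SR9009 and DMSO libraries fitted alone, the call was lost (adjusted p = 0.0906 in the last), while the log2 value in the last was 1.45.

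Further ATF4-arm values were large but varied, and the library of mouse 1 was the lowest of the 4 SR9009 libraries in 15 of the 18 genes, against 7 of 18 in the chaperone arm. It was below every DMSO library in 12 of the 18 ATF4-arm genes. Asns read 5.60, 5.85, 6.82 and 10.4 CPM in DMSO and 15.2, 18.6, 53.0 and 71.6 CPM with SR9009. Its groups did not overlap. With all libraries edgeR called it with mouse as a block (log2 2.20, adjusted p = 0.00108; 0.513% of all genes were then called higher), but not without the block (2.47, adjusted p = 0.0573). Phgdh, the gene of the enzyme that commits glycolytic carbon to serine (ENSMUSG00000053398, chromosome 3, 98220486 to 98247306), read 2.14, 2.08, 4.08 and 5.23 CPM and 1.05, 11.3, 41.9 and 56.9 CPM (edgeR log2 3.04, SE 0.84, adjusted p = 0.148). Atf5 read 22.9, 27.4, 24.4 and 23.3 CPM and 2.93, 65.5, 178 and 155 CPM (edgeR log2 2.04, SE 0.71, adjusted p = 0.28). In both, the library of mouse 1 was the lowest of all 8 and the other 3 SR9009 libraries were above every DMSO library. Trib3 (1.96, 1.77, 1.80 and 2.50 CPM and 0, 7.93, 14.3 and 18.0 CPM) and Chac1 (0.273, 0.115, 0.401 and 0.559 CPM and 0, 2.34, 4.19 and 5.49 CPM) showed the same layout, with 0 counts in the library of mouse 1, which allows a level of up to 0.209 CPM (3 counts; counting error only).

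Without that library, 6 of the 37 genes were called higher with SR9009 and 0 lower, all in the ATF4 arm, against 0.696% and 1.08% of all genes. They were Mthfd2 (log2 1.46, edgeR adjusted p = 0.00217), Atf5 (2.39, 0.00436), Phgdh (3.38, 0.0132), Asns (2.68, 0.0208), Slc7a5 (1.77, 0.0306) and Trib3 (2.69, 0.0404). Slc7a5 read 2.51, 12.8, 29.4 and 32.7 CPM with SR9009, again lowest in mouse 1. With the mouse block added, Chac1 joined them (3.40, 0.0155), making 7, beside 1.72% of all genes. Atf4 itself did not pass in either fit: it read 40.1, 103, 169 and 179 CPM with SR9009, and its log2 value was 0.78 (adjusted p = 0.656), or 1.02 (0.673) when mouse 1 of SR9009 was left out. Ddit3 read 13.3, 18.3, 20.1 and 20.2 CPM with SR9009, above all DMSO libraries, and did not pass (log2 0.76, adjusted p = 0.426).

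In the chaperone arm 0 genes passed with SR9009, with all libraries or without that of mouse 1. At an unadjusted p under 0.05 there were 2 of 18, Ern1 (log2 0.58) and Dnajb9 (1.73), beside 8 of 18 in the ATF4 arm and 7.96% of all genes higher in this sense. DESeq2 called 3 of the 37, all in the ATF4 arm (Phgdh, Asns, Mthfd2), beside 0.953% of all genes higher. The Dnajb9 value came from 1 library: it read 386, 48.9, 34.7 and 34.6 CPM with SR9009 against 50.2, 40.0, 31.4 and 30.1 CPM in DMSO, and without mouse 1 of SR9009 its log2 value was 0.02. The same library had 2149 CPM of Hsp90b1 against 432 to 510.2 in the other 3, and 6.41 CPM of Syvn1 against 60.1 to 67.0. Hspa5 read 924, 710.3, 712 and 786 CPM with SR9009, overlapping DMSO (log2 0.10, adjusted p = 0.883). Xbp1 (156, 246, 214 and 211 CPM), Atf6 (191, 128, 122 and 126 CPM) and Eif2ak3 (53.3, 54.9, 42.5 and 43.7 CPM) overlapped DMSO as well, with log2 values of −0.07, 0.23 and 0.17; leaving out the library of mouse 1 brought that of Xbp1 to 0.00. The rest of the arm lay between −0.25 (Syvn1) and 0.89 (Hsp90b1), and the rest of the ATF4 arm between −0.19 (Sesn2) and 0.47 (Psph). Without that library Syvn1 gave 0.08, Hsp90b1 −0.08 and Sesn2 0.09.

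SR9009 and LPS versus LPS asks what SR9009 changed in stimulated cells. With all libraries, 0 of the 37 genes passed in either direction, against 1.06% called higher and 0.737% called lower over all genes by edgeR. Without adjustment, 4 had a p under 0.05 and were higher (Asns, Phgdh, Mthfd2, Ern1; 7.79% of all genes) and 3 were lower (Psat1, Atf6, Herpud1; 5.74%). DESeq2 called 1, Asns, beside 2.71% of all genes higher. Asns read 8.24, 6.78, 14.5 and 21.5 CPM with LPS and 20.5, 20.0, 60.0 and 73.5 CPM with both agents, and the levels of each mouse were higher with SR9009 (per-mouse log2 differences 1.27, 1.49, 2.01 and 1.75). With mouse as a block it passed (log2 1.68, adjusted p = 0.00454; 2.20% of all genes were then called higher), and without the block it did not (1.77, SE 0.56, adjusted p = 0.133). Phgdh was likewise higher in each mouse, at 3.83, 3.51, 4.38 and 10.4 CPM and 9.28, 13.1, 27.1 and 48.3 CPM (differences 1.18, 1.76, 2.50 and 2.16; edgeR log2 2.14, SE 0.82, adjusted p = 0.237).

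Omitting the SR9009 library of mouse 1, which enters this comparison only through the shared spread, filter and scaling, gave 3 genes called higher and 1 lower. Of all genes, 6.68% and 4.79% were called. Higher were Asns (log2 1.80, edgeR adjusted p = 0.0353), Phgdh (2.17, 0.0300) and Ern1 (0.60, 0.0200), and lower was Atf6 (−0.45, 0.0271). Ern1 read 63.4, 57.5, 56.0 and 48.6 CPM with both agents against 38.3, 41.4, 37.5 and 35.4 CPM with LPS, and Atf6 152, 149, 124 and 110.3 CPM against 182, 218, 175 and 176 CPM. Neither gene's groups overlapped, but the share of all genes without overlap was not counted. The means of both sensors lay nearer to their DMSO means with SR9009 than without. The same LPS libraries enter both the change with LPS and this one. Psat1 was lower too, at 35.5, 46.9, 34.0 and 35.8 CPM against 80.0, 114, 53.9 and 63.3 CPM without overlap, but did not pass (log2 −1.03, adjusted p = 0.171). Vldlr read 2.82, 2.00, 1.54 and 1.78 CPM against 1.41, 1.22, 0.555 and 0.713 CPM with LPS, again without overlap (log2 1.07, adjusted p = 0.415). With the block added to that omission, 7 genes were called higher (Asns, Phgdh, Ern1, Vldlr, Shmt2, Atf5, Psph) and 3 lower (Atf6, Xbp1, Syvn1), beside 11.6% and 9.70% of all genes.

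Several genes of both arms differed by mouse under SR9009 and LPS, in a group whose 2 pairs of mice stood apart over all tested genes. Chi-square per gene between the pairs was 186 to 234 in this group, against 57.9 to 115 in DMSO and LPS. Atf4 read 27.9, 56.8, 261 and 314 CPM, below every DMSO library in mice 1 and 2 and above every LPS library in mice 3 and 4. Chac1 (0.353, 0.295, 6.10 and 11.4 CPM) and Trib3 (1.47, 1.88, 8.26 and 16.2 CPM) were likewise low in mice 1 and 2 and high in mice 3 and 4, as was Ddit3 (6.82, 12.1, 26.9 and 28.5 CPM). Hspa5 read 958, 1025, 1661 and 1582 CPM, with per-mouse log2 differences from LPS of −1.09, −1.07, 0.21 and −0.07. Herpud1, a ubiquitin-like organiser of degradation, read 23.3, 24.9, 63.0 and 75.4 CPM against 61.9, 84.4, 79.7 and 84.0 CPM with LPS (differences −1.39, −1.74, −0.34 and −0.16; edgeR log2 −0.73, SE 0.34, adjusted p = 0.351). Dnajb9 (19.7, 13.9, 41.4 and 39.4 CPM), Creld2 (16.7, 18.0, 39.0 and 40.3 CPM) and Manf (64.4, 67.7, 128 and 127 CPM) were also lower in mice 1 and 2 than in mice 3 and 4. For Atf4, Ddit3, Chac1 and Manf, the means over 4 mice thus join negative differences from LPS in mice 1 and 2 and positive ones in mice 3 and 4. The same signs were found in Atf3, Slc3a2, Edem1 and the folding genes Hsp90b1, Calr, Hyou1, Dnajc3, Sdf2l1, Pdia4 and Pdia6. A difference between the 2 pairs of mice was not tested, and the share of all genes with these signs was not counted.

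**Figure D3:**
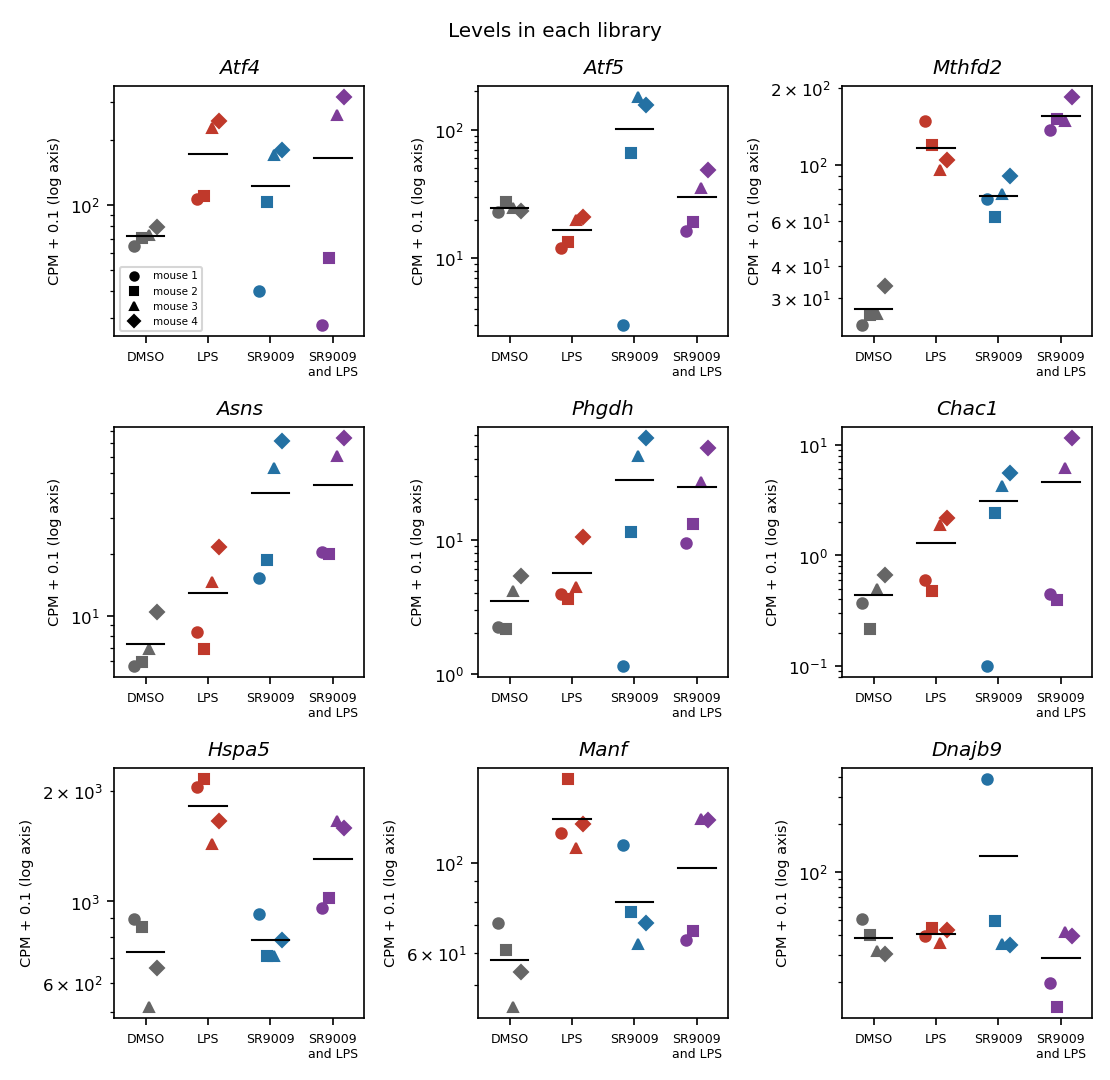
CPM + 0.1 (log axis) of 9 genes in each library by group; symbols mark the mouse and black lines the mean of the 4 libraries. Mthfd2 is higher in all libraries with SR9009 or LPS than in any with DMSO, Asns is higher in all libraries with SR9009 than with DMSO, and Atf4 and Chac1 with SR9009 and LPS are low in mice 1 and 2 and high in mice 3 and 4.

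SR9009 and LPS versus SR9009 asks what LPS did in cells already given SR9009. It raised 5 of the 37 genes and lowered 5, against 14.5% called higher and 15.8% called lower over all genes. In the ATF4 arm 4 rose and 0 fell. Atf3 read 554, 769, 572 and 589.8 CPM against 91.8, 133, 125 and 117 CPM with SR9009 alone (edgeR log2 2.41, SE 0.24, adjusted p = 2.22e-06), and Mthfd2 137, 151, 149 and 184 CPM against 73.3, 62.0, 76.6 and 90.5 CPM (edgeR log2 1.04, SE 0.19, adjusted p = 0.000649). Ddit4 (0.906, 5.96, 3.06 and 3.69 CPM to 6.29, 11.5, 9.91 and 12.0 CPM; log2 1.53, SE 0.41, adjusted p = 0.0105) and Ppp1r15a (6.48, 24.6, 18.7 and 17.0 CPM to 29.5, 30.0, 45.2 and 62.6 CPM; log2 1.32, SE 0.38, adjusted p = 0.0146) rose as well. None of these 4 overlapped between the groups, as read from the libraries that gave the calls. Over all genes this was not counted. Mthfd2 thus rose with either agent. Its mean was highest with both, at 155 ± 20.1 CPM, but those libraries overlapped the LPS libraries (adjusted p = 0.355), and in mouse 1 the level was higher with LPS alone.

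Lower were Eif2ak3 (53.3, 54.9, 42.5 and 43.7 CPM to 20.9, 13.5, 19.3 and 19.2 CPM; edgeR log2 −1.41, SE 0.19, adjusted p = 3.03e-05) and Ern1 (173, 133, 93.0 and 96.5 CPM to 63.4, 57.5, 56.0 and 48.6 CPM; log2 −1.13, SE 0.21, adjusted p = 0.000619), both without overlap. The 3 other genes called lower, Dnajb9 (log2 −2.14, adjusted p = 0.0226), Dnajc3 (−0.86, 0.0398) and Pdia4 (−0.66, 0.0274), had their highest level of all 16 libraries in the SR9009 library of mouse 1. Dnajb9 went from 386, 48.9, 34.7 and 34.6 CPM to 19.7, 13.9, 41.4 and 39.4 CPM, Dnajc3 from 337, 132, 113 and 123 CPM to 96.9, 80.9, 111 and 99.0 CPM and Pdia4 from 185, 123, 107 and 124 CPM to 68.6, 67.2, 101 and 104 CPM, and of these only Dnajb9 overlapped between the groups. In a fit that omits it, 6 genes were called higher and 3 lower, beside 22.7% and 20.8% of all genes, and none of these 3 passed (adjusted p = 0.313, 0.184 and 0.0665), while Atf5 was called lower with Eif2ak3 and Ern1 (log2 −2.10, adjusted p = 0.000331), and with the mouse block Dnajb9 did not pass either (0.101) and Vldlr was called lower (log2 −0.94, adjusted p = 0.0301). In the chaperone arm only Hspa5 rose, from 783 ± 100.3 to 1306 ± 366 CPM (edgeR log2 0.74, SE 0.24, adjusted p = 0.0275). That call was lost when mouse 2, 3 or 4, or its SR9009 library alone, was left out, as well as without the SR9009 and LPS library of mouse 3 or 4 and under upper-quartile scaling (adjusted p = 0.0626), while those of Atf3, Mthfd2, Eif2ak3 and Ern1 held in all 20 fits that left out a mouse or library. The number called higher was 9 without mouse 1 (22.4% of all genes), 2 without mouse 3 or 4 (10.0% and 10.1%), and 3 without the SR9009 and LPS library of mouse 4 (13.2%). The number called lower was 2 without mouse 2 (8.31% of all genes) or without the SR9009 and LPS library of mouse 1 or 2 (13.9% and 11.6%). Xbp1 (267, 286, 249 and 251 CPM) lay above all SR9009 libraries without passing (log2 0.35, adjusted p = 0.232).

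The interaction asks whether the SR9009 effect with LPS differed from that without. It was called for 0 of the 37 genes by edgeR, against 0% called higher and 0.00744% called lower over all genes. Before adjustment, p was under 0.05 for 0 higher and 7 lower (Mthfd2, Atf6, Psat1, Ddit3, Dnajb9, Slc7a5, Manf), beside 3.50% and 3.63% of all genes. By mouse the Dnajb9 difference was −3.90, −1.93, 0.08 and −0.31, the first with the SR9009 library of mouse 1. Mthfd2 had the smallest p: SR9009 added log2 1.49 without LPS and 0.41 with it, a difference of −1.08 (SE 0.27, adjusted p = 0.249). DESeq2 called that difference, as it did 0.372% of all genes in this direction (log2 −1.08, adjusted p = 0.0206), and so did edgeR with the mouse block when mouse 1 of SR9009 was left out (−1.03, adjusted p = 0.0463), where Slc7a5 was called as well (−1.95, adjusted p = 0.00349; 0.791% of all genes lower).

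Set side by side, the median log2 fold change was larger in the ATF4 arm than in the chaperone arm by 0.83 with LPS (1.22 and 0.39), 0.41 with SR9009 (0.61 and 0.20) and 0.49 for SR9009 and LPS against LPS (0.38 and −0.11). For SR9009 and LPS against SR9009 the medians were 0.17 and 0.02, and in the interaction that of the ATF4 arm was the lower one (−0.77 and −0.37). The comparisons of LPS and of SR9009 with DMSO share the DMSO libraries, and those of LPS with DMSO and of both agents with LPS share the LPS libraries. These medians come from all libraries, the SR9009 library of mouse 1 included. They describe genes chosen with results known and carry no test. On log2(FPKM + 1), the first difference was 0.46.

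By library, the mean deviation of the ATF4 arm from DMSO was 0.54 to 0.99 log2 units with LPS, and −0.78, 0.78, 1.25 and 1.43 with SR9009 in mice 1 to 4. With SR9009 and LPS it was 0.32, 0.62, 1.40 and 1.81. The mean of the chaperone arm was smaller in size in each of these libraries. It was 0.19 to 0.50 with LPS, 0.06 to 0.27 with SR9009, and −0.17, −0.22, 0.37 and 0.36 with both agents. The DMSO libraries themselves ran from −0.24 to 0.23 in the chaperone arm and from −0.11 to 0.17 in the ATF4 arm. Rises and falls cancel in such means. In mouse 1, the log2 difference of SR9009 from DMSO was 2.93 for Dnajb9 and −3.04 for Syvn1. Within each mouse, adding SR9009 to LPS changed the chaperone arm by −0.50, −0.72, 0.18 and 0.05 and the ATF4 arm by −0.22, 0.03, 0.62 and 0.81. The signed change of the ATF4 arm was above that of the chaperone arm in each of the 4 mice, the chaperone arm moving further in mice 1 and 2 and the ATF4 arm in mice 3 and 4.

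**Figure D4:**
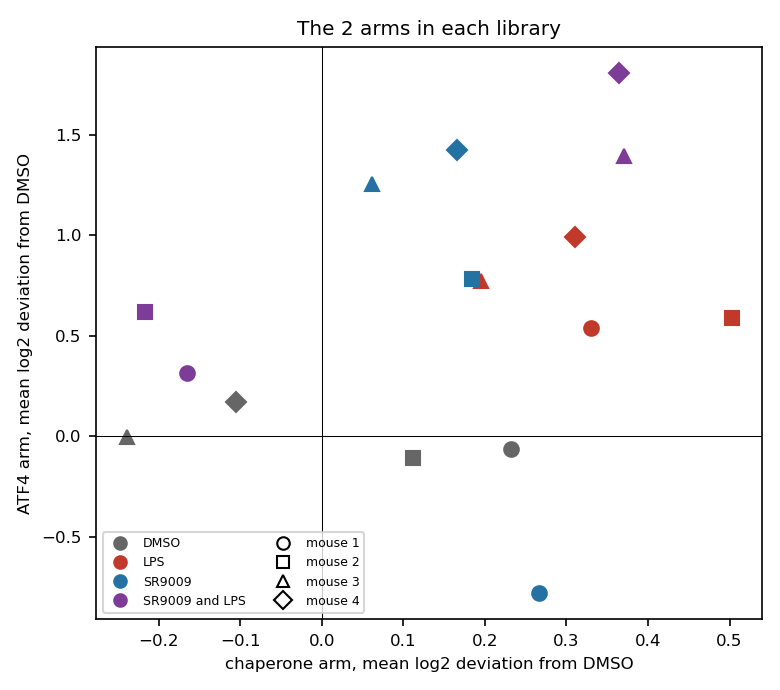
Mean log2 deviation from the DMSO mean of the 18 chaperone-arm genes (x axis) and of the 18 ATF4-arm genes (y axis) in each of the 16 libraries, computed on log2(CPM + 0.5). The SR9009 libraries of mice 2 to 4 lie between 0.78 and 1.43 on the y axis, and that of mouse 1 at −0.78.

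Other genes of these pathways were read from lists that hold none of the 37, against the shares over all genes given above (with LPS 19.4% higher and 20.4% lower, with SR9009 0.313% and 0.566%, and for SR9009 and LPS against LPS 1.06% and 0.737%). Of 22 further ATF4 targets, 6 rose and 5 fell with LPS (27.3% and 22.7%, near those shares; median log2 0.13), among them Nupr1, a stress-induced chromatin protein (log2 3.57, edgeR adjusted p = 8.73e-06), and Pck2, mitochondrial PEP carboxykinase (−2.70, 0.000134). With SR9009, 1 of 22 rose, Aldh1l2, a mitochondrial folate dehydrogenase downstream of Mthfd2 (adjusted p = 0.00793). It had 143 counts with SR9009 and 3 in DMSO, a ratio of 53.7 after scaling (exact 95% interval 18.0 to 264, counting error only). Added to LPS, SR9009 raised 2 of 22: Slc7a11, the cystine importer, from 47.2 ± 28.1 to 427 ± 403 CPM (log2 3.18, adjusted p = 0.0402), and the glycine transporter gene Slc6a9 (log2 3.77, adjusted p = 0.0232). Slc7a11 also rose with LPS alone (4.09, adjusted p = 0.000647). With mouse as a block these counts were 3 and 3 of 22, beside 0.513% and 2.20% of all genes. Omitting the SR9009 library of mouse 1 gave 4 with SR9009 (adding Slc1a4, Gdf15 and Pycr1) and 6 for SR9009 and LPS against LPS, with 0 lower in both, beside 0.696% and 6.68% of all genes higher.

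The aminoacyl-tRNA synthetases were listed by 24 symbols, with older and newer names of the same gene such as Aars and Aars1, and 12 matched. Of these 12 genes, 4 rose with LPS (Wars, Aars, Cars and Gars, log2 1.72, 1.08, 0.74 and 0.49, or 33.3% of the list). With SR9009, or for SR9009 and LPS against LPS, 0 passed. Without the SR9009 library of mouse 1, 3 were called higher with SR9009 (Aars, Cars and Sars, beside 0.696% of all genes). For SR9009 and LPS against LPS, 2 were then called higher and 1 lower (6.68% and 4.79% of all genes). With the mouse block and all libraries 1 was called higher with SR9009 and 0 for SR9009 and LPS against LPS. Of 10 genes of eIF2α kinases and eIF2 machinery, 3 rose with LPS and 1 fell (30% and 10%). Ppp1r15b, the constitutive partner of the eIF2α phosphatase, rose by log2 2.49 (adjusted p = 4.04e-07), Eif2ak2 (PKR, which senses double-stranded RNA) by 1.87 and Eif2s1, which encodes eIF2α, by 1.00. Eif2ak4 (GCN2, the sensor of uncharged tRNA) fell with LPS, as Eif2ak3 did, from 33.8 ± 1.07 to 12.3 ± 1.03 CPM (edgeR log2 −1.46, SE 0.15, adjusted p = 2.49e-06), and SR9009 raised it in LPS-treated cells to 20.6 ± 1.22 CPM (log2 0.74, adjusted p = 0.0204).

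Of 20 further chaperones and folding enzymes of the endoplasmic reticulum, 1 rose with LPS (Dnajb11, log2 0.75) and 5 fell, among them Ero1b (−1.07), Cnpy3 (−1.09) and Fkbp14 (−1.62), which is 5% and 25% of the list, and the median was 0.04. Of 34 further genes of degradation and export, 9 rose and 2 fell (26.5% and 5.88%; median 0.34), with the coat protein gene Sec23b at 1.75. Among 16 cytosolic heat shock genes 9 rose and 0 fell with LPS (56.2% higher; median 1.12), led by Dnaja1 (2.34, adjusted p = 3.64e-06), Hspa1a (6.13) and its near-identical neighbour Hspa1b (5.62), between which reads may be split. Of 10 mitochondrial chaperone and protease genes 1 rose (Yme1l1, 1.12). None of these 4 lists had a call for SR9009 against DMSO, with or without the SR9009 library of mouse 1. For SR9009 and LPS against LPS they had none with all libraries and no block. Without that library 1 folding gene, 1 heat shock gene and 1 mitochondrial gene were called higher and 3 degradation and export genes lower, beside 6.68% and 4.79% of all genes. Its omission also brought the LPS calls to 4 higher and 7 lower among the folding genes and to 14 higher and 2 lower among the degradation and export genes, beside 26.8% and 30.6% of all genes.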

How the data were processed

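RNA was sequenced from 16 poly(A) libraries of bone marrow-derived macrophages. The authors deposited raw counts per gene, one table of 56748 genes, and FPKM per sample. The submitters' processing notes name HISAT2 and GRCm39 (mm39). Counter, strand setting and annotation were not given in the sources used here, so reads of overlapping genes may be shared. The deposited FPKM values equal counts per length and per an effective library size close to median-of-ratios scaling.

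Counts were tested with edgeR 4.0.16 (R 4.3.3): TMM factors, a filter on low counts (filterByExpr, minimum count 10, minimum total 15), 1 robust quasi-likelihood fit of 4 group means to all 16 libraries, and Benjamini-Hochberg adjustment over 13438 genes at 0.05. Standard errors were taken as the size of the log2 value over √F. Alternatives used DESeq2 1.42.0, limma 3.58.1 (voom, and log2(FPKM + 1)), other factors and filters, and left out libraries. Figures were drawn with matplotlib 3.10.9. Total counts set the depth, and intervals and floors cover counting error only. A second row named Ddit3 held 0 counts and was not used.

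Mouse numbers name the animal that gave each library, so they pair the samples: deviations from the group means correlated at 0.0809 to 0.560 (median 0.249) over 24 pairs of 1 mouse and at −0.567 to 0.522 (median −0.0899) over 72 pairs of different mice. Mouse as a block was an alternative. On simulated counts for SR9009 versus DMSO (13014 genes), 73 of 100 genes changed by log2 2 and 15 of 100 changed by log2 1 were recovered, with 2 false calls.

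The members and lists were chosen with earlier results of these data known. All 37 were to be named, with every library's value for those called in the comparison and for the factors and sensors; values by library for Asns, Phgdh, Slc7a5, Atf5, Trib3, Chac1, Vldlr, Psat1, Herpud1, Dnajb9, Creld2 and Manf in comparisons where they were not called were added after their values were seen.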

Additional observations from a re-analysis of the deposited data

Results flagged for a closer look

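In 12 of 148 groups of 4 libraries (37 genes, 4 groups), the highest or lowest library stood off from the nearest other by a share of the group's range above Dixon's critical value for 4 values, which chance gives in about 1 in 20 groups. Of these, 6 were in the SR9009 library of mouse 1. It was highest in Atf6 (191 CPM, next 128), Hsp90b1 (2149 CPM, next 510.2), Dnajb9 (386 CPM, next 48.9) and Dnajc3 (337 CPM, next 132). It was lowest in Sdf2l1 (17.4 CPM, next 77.7) and Syvn1 (6.41 CPM, next 60.1). Herpud1 in the SR9009 library of mouse 2 stood at 107 CPM, the next at 74.6.

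With LPS, Ppp1r15a was low in mouse 1 (31.7 CPM, next 44.6), Phgdh was high in mouse 4 (10.4 CPM, next 4.38) and Atf6 was high in mouse 2 (218 CPM, next 182). With SR9009 and LPS, mouse 2 was highest in Atf3 (769 CPM, next 589.8) and Psat1 (46.9 CPM, next 35.8).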

How the results depend on the processing

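No value that passed its test changed direction under any alternative run. Of the 37 genes, 3 had the other sign under at least 1 alternative with LPS, 14 for SR9009 versus DMSO, 13 for SR9009 and LPS versus LPS, 14 for SR9009 and LPS versus SR9009 and 12 in the interaction, none of them called. Fitting only the groups compared gave 6 genes called lower with LPS (32.4% of all genes), 0 called higher for SR9009 versus DMSO (0.0153%), 1 called higher for SR9009 and LPS versus LPS (1.78%), and 2 called higher and 2 lower for SR9009 and LPS versus SR9009 (9.03% and 7.75%). For that last comparison, 3 genes were called lower with no filter (6.09%) and 3 by limma on log2(FPKM + 1) (13.2%), which also gave an arm median difference of 0.46 with LPS (0.83 on counts). DESeq2 called 3 genes higher for SR9009 versus DMSO (0.953%), 1 higher for SR9009 and LPS versus LPS (2.71%), and 1 lower in the interaction (0.372%). With mouse as a replicate block, 2 genes were called higher for SR9009 versus DMSO (0.513%) and 1 for SR9009 and LPS versus LPS (2.20%). Among the 37 genes the block changed no call beyond those given above (Asns in 3 comparisons, Shmt2, Dnajb9 and Vldlr). With the block and without the SR9009 library of mouse 1, counts were 8 lower with LPS (35.4% of all genes), 7 higher for SR9009 versus DMSO (1.72%), 7 higher and 3 lower for SR9009 and LPS versus LPS (11.6% and 9.70%), and 2 lower in the interaction (0.791%). Of the LPS calls, Vldlr was lost on log2(FPKM + 1) (limma adjusted p = 0.0631), Slc7a5 by limma-voom (0.0577), and Atf6, Xbp1, Pdia6 and Sel1l with no filter on low counts (edgeR 0.0821, 0.0785, 0.0616 and 0.183). For SR9009 and LPS versus SR9009, Dnajb9 was lost by DESeq2, Dnajb9 and Dnajc3 by limma-voom, these and Pdia4 on log2(FPKM + 1), Dnajc3 and Pdia4 with no filter, Dnajc3 with median-of-ratios factors, Hspa5 with upper-quartile factors, and Dnajb9, Dnajc3, Pdia4, Ddit4, Ppp1r15a and Hspa5 when only the groups compared were fitted.

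Over 20 fits that left out a mouse or a library, genes called higher and lower were 6 to 17 and 2 to 5 with LPS, 0 to 6 and 0 for SR9009 versus DMSO, 0 to 3 and 0 to 1 for SR9009 and LPS versus LPS, 2 to 9 and 2 to 6 for SR9009 and LPS versus SR9009, and 0 in the interaction. Arm median differences were 0.65 to 0.96, 0.32 to 0.70, 0.41 to 0.65, −0.27 to 0.32 and −0.73 to −0.03 in the order of these counts. Each of these fits had fewer samples. Without mouse 1, 3396 of all genes were called higher and 3852 lower with LPS, beside 2611 and 2741 with all libraries. Causes of the changes in count were not tested. In counts simulated for SR9009 versus DMSO (4 libraries a group, biological coefficient of variation 0.377), changes of log2 1 were mostly not detected. Only the SR9009 group held changed genes there, so the rate does not carry over to comparisons with many calls. The simulated libraries were drawn independently, with no effect of mouse and no outlying library. Their spread was estimated from all 16 libraries, that of mouse 1 with SR9009 included. The rate is therefore that of a simpler setting than these data. With LPS, 19.4% of all genes were called higher and 20.4% lower.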
